A study of Mus musculus with 18 samples.

Results

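The comparison described here is the late change of mouse aorta kept in organ culture without hormone, 3 samples cultured with vehicle for 8 h against 3 cultured with vehicle for 4 h. Its members were chosen by level: any 3 or more of these 6 samples, of either group, had to exceed a log2 value of 4 for a probe set to enter. Of 22626 probe sets for genes in the series, 11592 met this rule. Among them, 10614 had 1 annotated gene, and each gene was read from its brightest probe set (mean of the 6 samples), which left 6753 genes. The series holds 18 samples, of which these 6 form the comparison, and 6 more, cultured with aldosterone at 100 nM for 8 or 4 h, served as a separate set beside it. Every animal was a wild type male C57Bl/6 mouse that had carried a subcutaneous spironolactone pellet (20 mg/kg/day) for 5 days, so both vehicle groups share exposure to this antagonist of the mineralocorticoid receptor (MR). Each sample pooled 3 aortas, and whether pools of different times shared animals is not given in the sources used here. No aorta that had not been cultured was analysed here, and the vessel was studied outside the body, without blood flow, pressure or nerve supply. The p-values below measure the spread between pools.

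The aortic wall is made of smooth muscle cells between elastic sheets, lined by endothelium and wrapped in an adventitia of fibroblasts, macrophages, nerve and fat. A vessel that is cut out and placed in medium loses stretch and flow and draws its oxygen and nutrients by diffusion. Immediate early genes, which encode short-lived transcription factors, are switched on within minutes of handling tissue and then decline. Slower programmes run on stabilised or translated regulators: HIF transcription factors when oxygen is low, ATF4 when amino acids are short or the endoplasmic reticulum is stressed, and NRF2 under oxidative or electrophilic stress.

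Between 4 and 8 h, 2757 of the 6753 genes changed, which is 40.8%, with 1555 higher (23%) and 1202 lower (17.8%) at an adjusted p under 0.05. These percentages are the background for each count of list members below. The test was limma with Benjamini-Hochberg adjustment over all 11592 probe sets, of which 4514 (38.9%) passed. A gene is said to rise or fall only where it passed, differences are log2 level at 8 h minus log2 level at 4 h with their SE, and n is 3 pools a group throughout. The median difference was 0.04 over all genes, 0.75 among those that rose and -0.83 among those that fell. More than 1 on the log2 scale separated the times for 431 of the genes that rose and 442 of those that fell, and more than 2 for 38 and 71. For 3636 genes (53.8%) the 8 h pools did not overlap the 4 h pools. The 6 samples split by time: correlations across probe sets ran from 0.9828 to 0.9891 within 8 h and from 0.9845 to 0.9902 within 4 h, against 0.9382 to 0.9476 between the times. The first principal component held 72.9% of the variance and the next 9.57%. At the edge of the filter, the nearest probe sets had a third-highest log2 value of 4.00015 just inside and 3.99996 just outside, with 237 probe sets within 0.1 above the level and 197 within 0.1 below it. Signal of the 3' end over the 5' end, a measure of RNA breakdown in the array's control probe sets, averaged 0.435 at 8 h and 0.602 at 4 h for Gapdh on the log2 scale (exact permutation p = 0.3, two-sided) and 1.77 at 8 h and 1.97 at 4 h for beta-actin (exact permutation p = 0.4), where 3 pools against 3 cannot give less than 0.1.

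**Figure D1:**
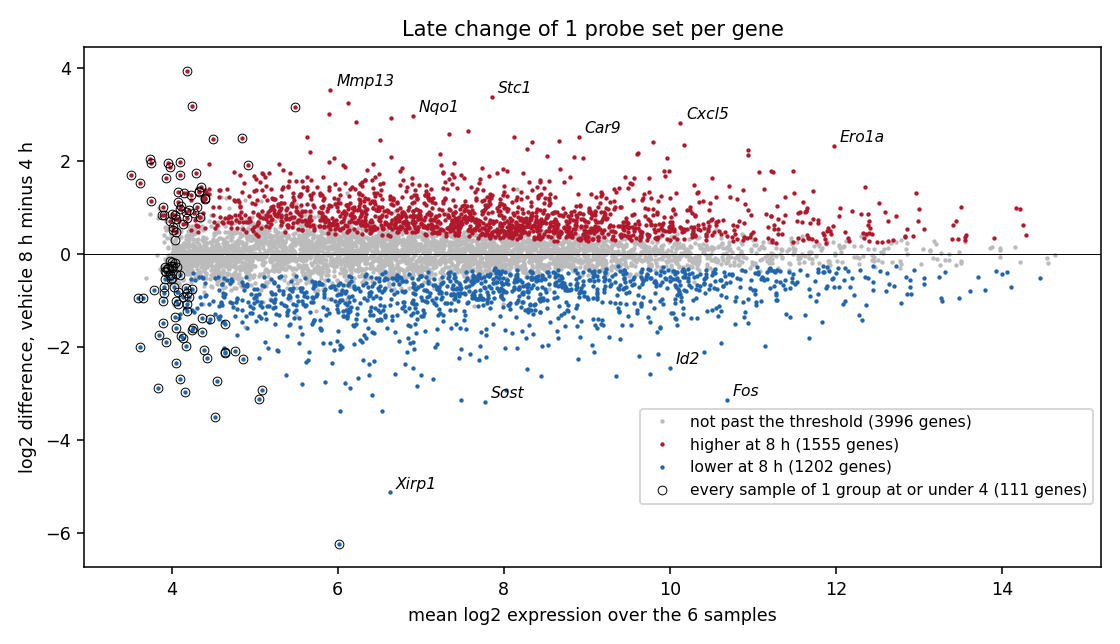
Each point is a gene, with its mean log2 expression over the 6 vehicle samples on the horizontal axis and its log2 difference, 8 h minus 4 h, on the vertical axis. Red points are the 1555 genes higher at 8 h, blue points the 1202 lower, grey points those not past the threshold, and ringed points the genes with every sample of 1 group at or under 4. Changes in both directions occur over the whole range of levels, and Xirp1 lies lowest among the genes that are not ringed.

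The 25 genes that rose most were led by enzymes and secreted proteins. Mmp13, a collagenase, had log2 levels of 8.04, 7.33 and 7.65 at 8 h, against 4.13, 4.30 and 4.02 at 4 h, a fitted 11.5-fold rise (3.53 ± 0.20, adjusted p = 7.31e-05). Its 4 h pools lay just above the filter level, so this fold is uncertain. Stc1, the secreted glycoprotein stanniocalcin 1, had log2 levels of 9.64, 9.58 and 9.41 at 8 h, against 6.47, 6.49 and 5.53 at 4 h, a 10.4-fold rise (3.38 ± 0.25, adjusted p = 0.000125). In both genes the lowest 8 h pool lay well above the highest 4 h pool. Got1, the cytosolic aspartate aminotransferase, rose by 3.25 ± 0.34 (log2), Pde1a, a calcium-dependent phosphodiesterase, by 3.02 ± 0.14, and Slc19a1, the reduced folate carrier, by 2.93 ± 0.30. The lowest 4 h pool had a log2 level of 4.01 for Got1 and 4.30 for Pde1a, near the filter level. The sizes of both rises are therefore uncertain too. The 25 genes that rose most also held Cyb5r1, a cytochrome b5 reductase (2.52 ± 0.17), Gbe1, the glycogen branching enzyme (2.45 ± 0.26), Il13ra1, a receptor chain for interleukin 13 (2.26 ± 0.18) and Fam162a, a mitochondrial protein induced by hypoxia (2.24 ± 0.14). Further genes had every 4 h pool at or under a log2 level of 4, so only a bound is given for them. Arg1, which encodes arginase 1, rose at least 4.46-fold on the mean of its 8 h pools. Its log2 levels were 7.43, 5.32 and 5.72 at 8 h, against 2.18, 2.31 and 2.18 at 4 h, and the pools at 5.32 and 5.72 lay under that mean. Its 8 h pools lay far apart, and without vehicle 8 h replicate 1 its fitted log2 difference was 3.30, against 3.93 with all pools. Aldh1a3, which makes retinoic acid, rose at least 3.66-fold on the mean of its 8 h pools, which also lay far apart. Its log2 levels were 6.48, 6.20 and 4.94 at 8 h, against 3.95, 3.95 and 3.98 at 4 h.

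Xirp1, an actin-binding protein of muscle adhesion sites, fell furthest of the genes without every pool of 1 time at or under the level. Its log2 levels were 4.09, 3.99 and 4.13 at 8 h, against 8.82, 9.55 and 9.22 at 4 h, a fitted 8 h level of 0.0286 of that at 4 h (-5.13 ± 0.20, adjusted p = 4e-05). Its 8 h pools lay at the filter level, 1 of them just under it, so this fold is uncertain. Abca8a, a lipid transporter of the ABC family, followed at -3.39 ± 0.15 (log2), Sost, which encodes the Wnt inhibitor sclerostin, at -3.19 ± 0.20 and Peg3, an imprinted zinc finger gene, at -3.02 ± 0.27. A second probe set of Sost gave a log2 difference of -0.32, and those of Peg3 gave -1.27 and -1.25. Vegfd, a growth factor for lymphatic vessels, fell by 2.87 ± 0.17 on the log2 scale, the methyltransferase gene Inmt by 2.77 ± 0.25, Gdf10, a ligand of the TGF-beta family, by 2.76 ± 0.29 and Fbxo32, the ubiquitin ligase subunit atrogin-1, by 2.60 ± 0.27. The lowest 8 h pool had a log2 level of 3.94 for Gdf10, 4.28 for Peg3 and 4.42 for Inmt. These lay near or under the filter level, so the sizes of these falls are uncertain too. Among genes whose 8 h pools were all at or under 4, Cygb, the oxygen-binding globin cytoglobin, was at least 5.85-fold lower at 8 h, the membrane protease gene Fap at least 3.78-fold and the matrix gene Vit at least 3.48-fold.

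**Figure D2:**
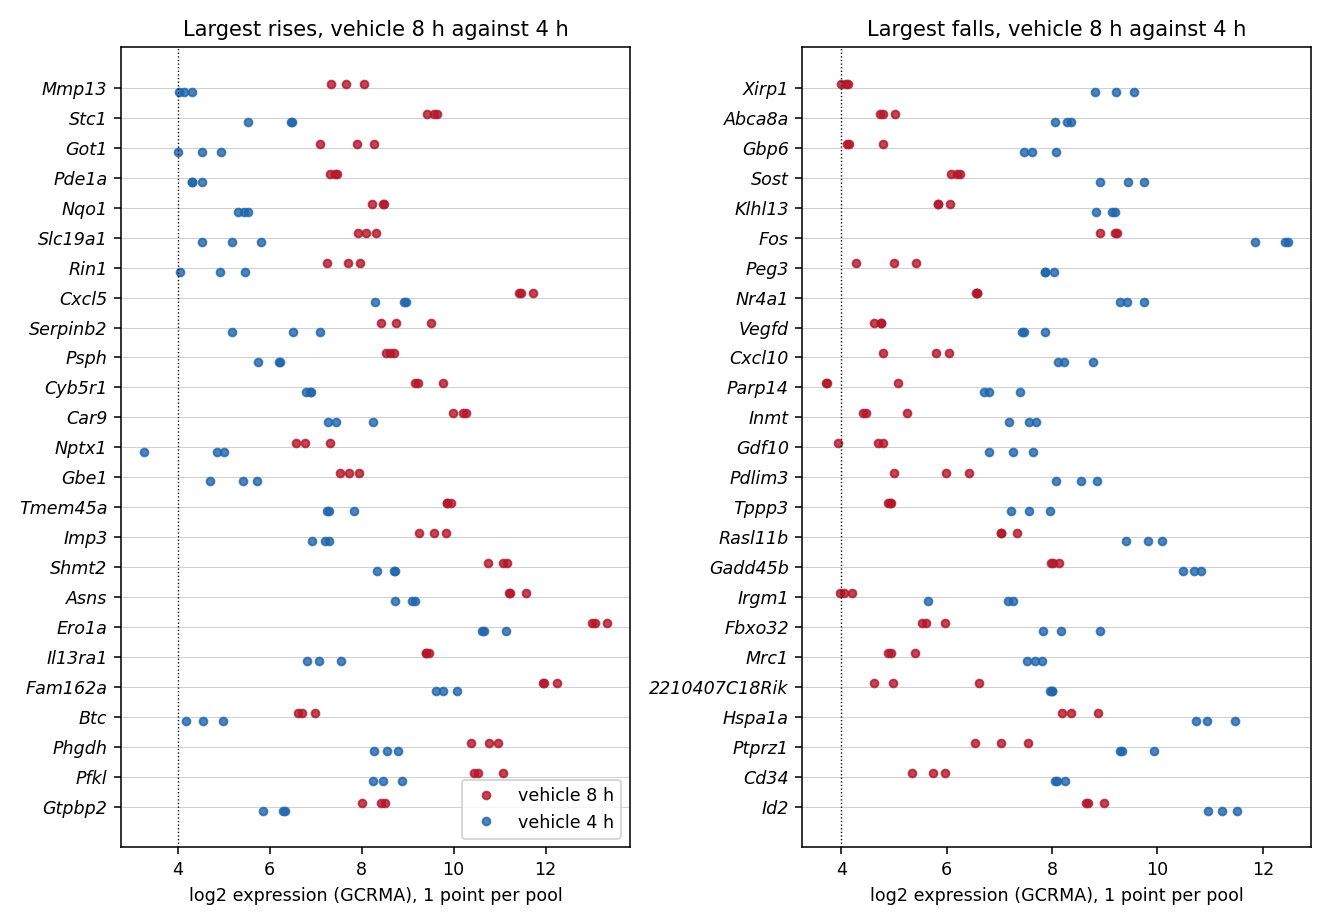
Log2 levels of single pools for the 25 genes that rose most (left) and the 25 that fell most (right), with red points for 8 h and blue points for 4 h, and a dotted line at the filter level of 4. In each row the red points lie to 1 side of the blue points, which the rule for naming these genes required, and those of Xirp1 are farthest apart.

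Genes for the supply of amino acids rose in large number. ATF4 binds composite promoter elements of genes for amino acid transport, amino acid synthesis and tRNA charging. The promoter windows of a transporter gene and a synthetase gene are shown because both hold the core of this element, TGATGNAA, in capitals (RefSeq, GRCm38.p6, from 250 bases before to 50 after the annotated start). They were taken as the members past the threshold with the largest change among those with 1 window and a match. Slc7a11 lies at chr3:50443564-50443863 on the minus strand and Yars at chr4:129189653-129189952 on the plus strand.
Slc7a11: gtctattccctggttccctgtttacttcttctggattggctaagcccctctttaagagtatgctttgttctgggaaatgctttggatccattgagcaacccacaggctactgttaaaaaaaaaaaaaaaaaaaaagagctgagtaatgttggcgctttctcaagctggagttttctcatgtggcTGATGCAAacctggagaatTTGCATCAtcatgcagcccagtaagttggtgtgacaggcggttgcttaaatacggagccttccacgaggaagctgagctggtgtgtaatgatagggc
Yars: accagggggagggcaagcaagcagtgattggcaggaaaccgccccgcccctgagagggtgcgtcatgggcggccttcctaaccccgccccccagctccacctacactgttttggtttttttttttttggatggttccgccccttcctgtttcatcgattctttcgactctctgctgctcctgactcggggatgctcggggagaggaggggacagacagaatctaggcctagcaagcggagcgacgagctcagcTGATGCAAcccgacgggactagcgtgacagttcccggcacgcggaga
Slc7a11, the cystine carrier of system xc-, holds 2 matches upstream of its start, and Yars, the tyrosyl-tRNA synthetase gene, holds 1 just after it. Counted on both strands, the motif was in the window of 43.8% of the 16 genes with a window on the list of ATF4 targets and amino acid transporters and 45.5% of 11 aminoacyl-tRNA synthetase genes, against 4.51% of all 27025 genes with a window and 2.83% of the 5484 tested. None of the 8 windows of serine and folate enzymes held this motif. It was in the window of 3.12% of 1282 genes higher at 8 h and 2.3% of 957 lower. Lists of a factor's known targets, here and below, were chosen by that knowledge, so a high share of its element follows from the choice. A link between an element and the change was not tested. A match describes letters in a window and is no measurement of binding.

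Of 19 tested ATF4 targets and amino acid transporters, 13 rose and 1 fell, with a list median of 0.96 (log2 difference) against 0.04 over all genes. Slc7a11 had log2 levels of 5.46, 5.71 and 6.31 at 8 h, against 2.84, 2.54 and 2.59 at 4 h, and rose at least 3.55-fold (adjusted p = 0.000114). Cth, the last enzyme of the pathway that makes cysteine from methionine, rose at least 8.39-fold, with log2 levels of 7.25, 7.26 and 6.70 at 8 h, against 3.85, 3.92 and 3.93 at 4 h. Asns, asparagine synthetase, had log2 levels of 11.58, 11.21 and 11.22 at 8 h, against 9.16, 8.72 and 9.10 at 4 h, a 5.07-fold rise (2.34 ± 0.15, adjusted p = 8.79e-05). The 8 h pools of Asns all lay above its 4 h pools. For Slc7a11 and Cth the filter required this, because their 4 h pools were all at or under 4. Both chains of the large neutral amino acid carrier rose, Slc7a5 by 2.07 ± 0.14 and Slc3a2 by 1.19 ± 0.13 (log2). The transcript of Atf4 itself fell by 0.34 ± 0.10 (adjusted p = 0.0289), and its other probe sets gave -0.25 and 0.07. That call of Atf4 was lost in 9 of 17 alternative settings (adjusted p up to 0.153), with log2 differences from -0.44 to -0.17. Among the losses were the fits without vehicle 4 h replicate 1, 2 or 3 or vehicle 8 h replicate 1 or 2. The stress-induced members Sesn2, Ppp1r15a and Ddit4 gave log2 differences of 0.26, 0.11 and 0.14 and did not pass.

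Serine is made from a glycolytic intermediate by Phgdh, Psat1 and Psph, and the mitochondrial enzymes Shmt2 and Mthfd2 pass its carbon to folate. Of 8 tested genes on this list 6 rose and 0 fell, with a median log2 difference of 1.78. Psph had log2 levels of 8.70, 8.54 and 8.62 at 8 h, against 6.21, 5.73 and 6.20 at 4 h (2.57 ± 0.16, adjusted p = 7.47e-05). Shmt2 had log2 levels of 11.17, 11.08 and 10.76 at 8 h, against 8.70, 8.34 and 8.73 at 4 h, a 5.32-fold rise (2.41 ± 0.15, adjusted p = 7.47e-05), and its other probe sets gave 3.10 and 1.35. Phgdh rose by 2.17 ± 0.18, Psat1 by 1.79 ± 0.15 and Mthfd2 by 1.78 ± 0.14 (log2). Aldh18a1, which starts proline synthesis, rose by 1.50 ± 0.10. The cytosolic enzyme genes Shmt1 and Mthfd1 were not called, with overlapping pools: Shmt1 gave -0.17 ± 0.31 and Mthfd1 gave -0.26 ± 0.20.

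Aminoacyl-tRNA synthetases load amino acids onto their tRNAs, and 15 of 17 tested rose with 0 lower and a median log2 difference of 1.12. Sars, for serine, had log2 levels of 10.30, 9.86 and 9.80 at 8 h, against 8.08, 7.71 and 7.96 at 4 h (2.07 ± 0.16, adjusted p = 0.000142). Yars, named for its promoter window after its values were seen, had log2 levels of 6.47, 6.28 and 6.02 at 8 h, against 4.79, 4.09 and 4.09 at 4 h (1.94 ± 0.23, adjusted p = 0.000632). Lars, for leucine, rose by 1.65 ± 0.13, Gars, for glycine, by 1.46 ± 0.12, Nars, for asparagine, by 1.40 ± 0.09 and Iars, for isoleucine, by 1.12 ± 0.08. Qars, for glutamine, gave 0.38 ± 0.14 (adjusted p = 0.0592). The smallest log2 difference on the list was 0.38, so all 17 tested had a higher mean at 8 h.

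Genes induced by hypoxia and genes of glycolysis were mostly higher: 19 of 22 tested rose and 2 fell, with a median log2 difference of 1.28. The 8 h and 4 h pools did not overlap in 21 of the 22, beside 53.8% of all genes. Carbonic anhydrase 9, encoded by Car9, is a surface enzyme widely used as a marker of HIF activity. Its window at chr4:43506776-43507075 on the plus strand is shown because it holds the core of the hypoxia response element, NACGTG, in capitals as read on the other strand.
Car9: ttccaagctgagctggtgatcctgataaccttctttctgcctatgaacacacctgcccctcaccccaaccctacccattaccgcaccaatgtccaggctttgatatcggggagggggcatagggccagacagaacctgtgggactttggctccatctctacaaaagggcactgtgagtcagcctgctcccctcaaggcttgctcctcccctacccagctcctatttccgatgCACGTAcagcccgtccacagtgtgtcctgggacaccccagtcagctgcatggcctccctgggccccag
Counted on both strands, this core was in the window of 76.2% of 21 list genes, against 21.7% of all 27025 genes and 30.6% of the 5484 tested, and it includes the E-box CACGTG, which other factors bind. The core was in the window of 34.2% of 1282 genes higher at 8 h and 28.3% of 957 lower. Car9 had log2 levels of 10.26, 9.99 and 10.21 at 8 h, against 7.26, 7.44 and 8.24 at 4 h, a 5.7-fold rise (2.51 ± 0.24, adjusted p = 0.000282). Pdk1, the kinase that holds pyruvate back from mitochondria, had log2 levels of 9.25, 8.99 and 9.06 at 8 h, against 7.32, 7.29 and 7.47 at 4 h (1.74 ± 0.12, adjusted p = 8.89e-05). Of the glycolytic enzymes, Pfkl rose by 2.15 ± 0.21, Tpi1 by 1.76 ± 0.15 and Pkm by 1.36 ± 0.11 (log2). Oxygen sensors that mark HIF for degradation, and are themselves HIF targets, also rose, Egln3 by 1.62 ± 0.12 and Egln1 by 1.25 ± 0.10. P4ha1, a collagen prolyl hydroxylase subunit, rose by 1.32 ± 0.08. The exceptions were Hk2, hexokinase 2, which fell by 0.73 ± 0.08 (adjusted p = 0.000492), and Pfkfb3, an activator of glycolysis, at -0.39 ± 0.11 (adjusted p = 0.0232) with another probe set at 0.41. The call of Pfkfb3 was lost in 4 of 17 alternative settings, and its sign turned in 1. The losses included the fits without vehicle 4 h replicate 2 or vehicle 8 h replicate 1 or 2 (adjusted p up to 0.0782). Adm, the vasodilator adrenomedullin, gave 0.12 ± 0.15 and did not pass.

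NRF2 drives genes for glutathione, thioredoxin and quinone detoxification, and 15 of 22 tested on this list rose with 0 lower, at a median log2 difference of 0.72. Gclm, the regulatory subunit of the enzyme that starts glutathione synthesis, is a classic target. Its window at chr3:122245307-122245606 on the plus strand is shown because it holds the antioxidant response element TGACNNNGC, in capitals as read on the other strand.
Gclm: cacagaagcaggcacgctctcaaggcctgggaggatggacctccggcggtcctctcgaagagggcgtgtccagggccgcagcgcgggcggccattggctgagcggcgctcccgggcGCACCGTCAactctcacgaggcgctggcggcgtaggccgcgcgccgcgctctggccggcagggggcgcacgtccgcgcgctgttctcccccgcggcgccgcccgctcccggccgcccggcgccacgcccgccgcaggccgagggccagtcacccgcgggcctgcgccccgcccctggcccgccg
The element was in the window of 44.4% of 18 list genes, against 14% of all 27025 genes and 17.5% of the 5484 tested, on both strands. It can share letters with an AP-1 site, TGANTCA. Nqo1, a quinone reductase, had log2 levels of 8.48, 8.46 and 8.22 at 8 h, against 5.53, 5.43 and 5.31 at 4 h, a 7.8-fold rise (2.96 ± 0.14, adjusted p = 4.09e-05). Gclm had log2 levels of 10.09, 10.23 and 10.29 at 8 h, against 8.72, 8.73 and 8.92 at 4 h (1.41 ± 0.10, adjusted p = 0.000114). Taldo1, of the pentose phosphate pathway, rose by 1.28 ± 0.13, Srxn1, which repairs peroxiredoxins, by 1.22 ± 0.11 and Txn1, thioredoxin, by 0.90 ± 0.08 (log2). Other Srxn1 probe sets gave 0.16, 1.44 and 1.34. Among the 7 members not called, Cat, catalase, gave -0.24 ± 0.13, Gpx1, a glutathione peroxidase, -0.18 ± 0.16 and Sod3, the extracellular superoxide dismutase, 0.49 ± 0.25.

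**Figure D3:**
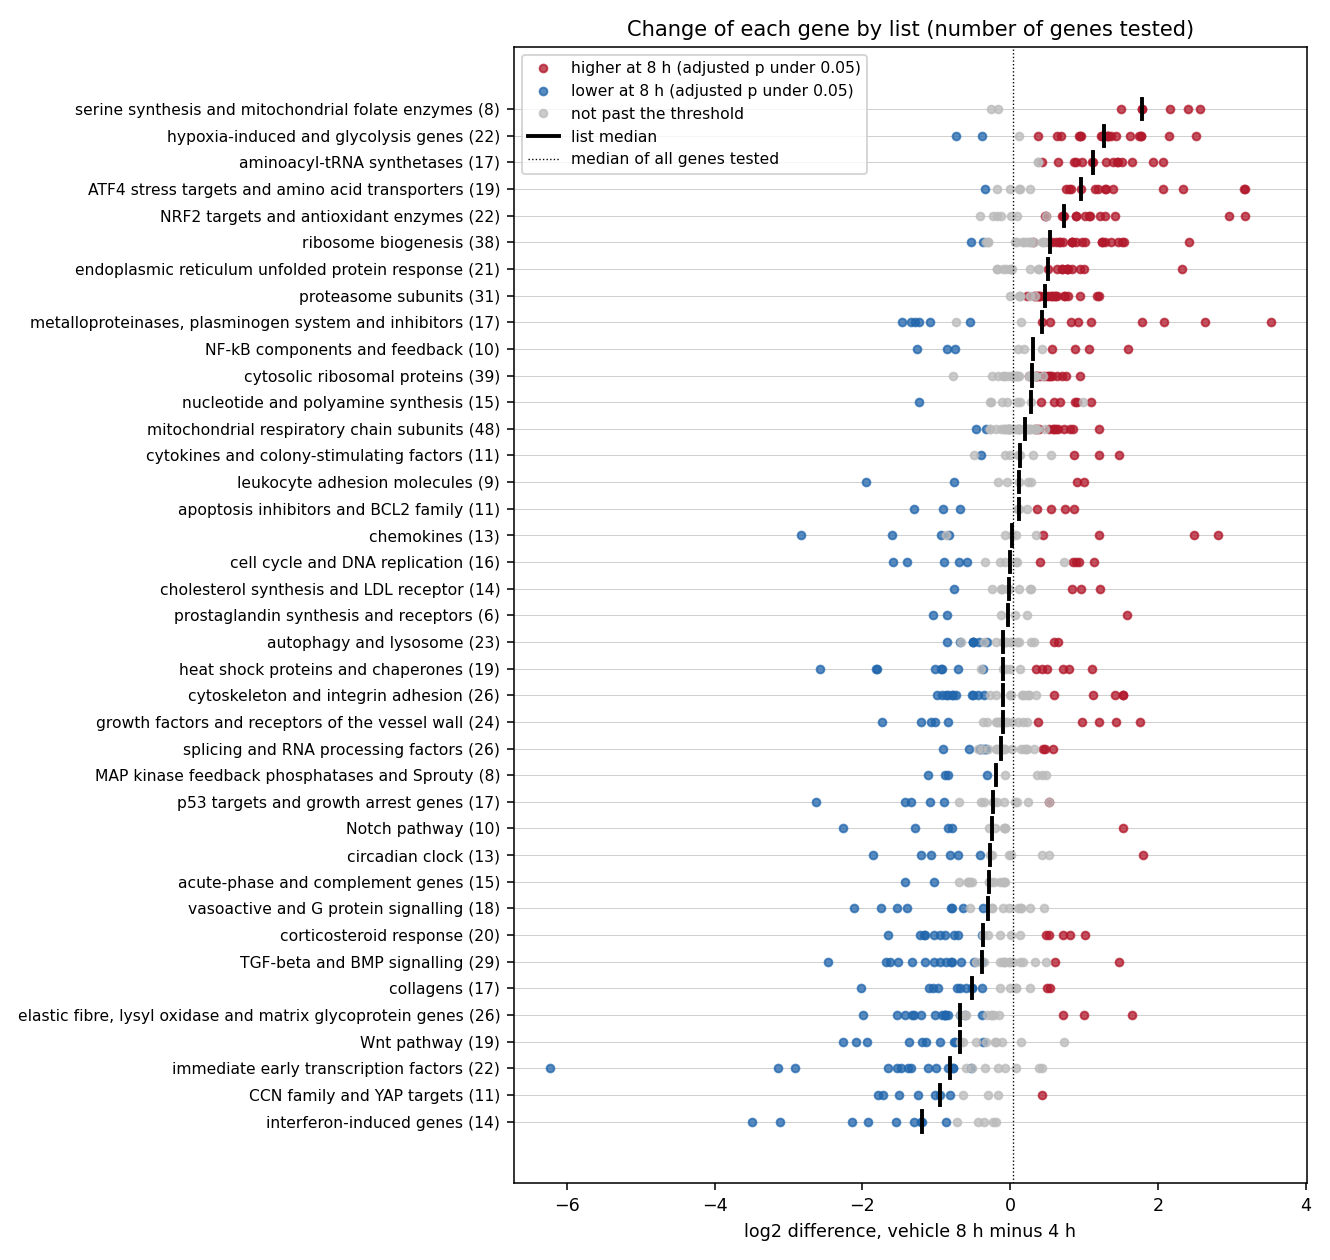
Each point is a tested gene, placed by its log2 difference, 8 h minus 4 h, in the row of its list, with red for higher, blue for lower and grey for not past the threshold. Black ticks are list medians and the dotted line is the median of all genes, 0.04. Serine and folate enzymes (median 1.78) lie at the top and interferon-induced genes (median -1.20) at the bottom, and the point farthest left, Fosb, is a fitted value of a gene whose 8 h pools were all under 4.

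The unfolded protein response and proteasome lists held rises and no falls. Of 21 tested genes of the unfolded protein response of the endoplasmic reticulum, 11 rose and 0 fell, with a median log2 difference of 0.51. Ero1a, the oxidase that supplies disulfide bonds, stood apart at log2 levels of 13.01, 13.07 and 13.33 at 8 h, against 10.62, 10.66 and 11.13 at 4 h, a 5.02-fold rise (2.33 ± 0.15, adjusted p = 8.89e-05). Ero1a is also a HIF target, and the other members that rose changed less: Hspa5, the chaperone BiP, by 0.63 ± 0.11, Herpud1, of the degradation pathway, by 0.70 ± 0.08 and the sensor gene Atf6 by 0.84 ± 0.16 (log2). Xbp1, a central transcription factor of this response, gave -0.18 ± 0.09 and did not pass. Of 31 proteasome subunit genes 25 rose and 0 fell, with a median of 0.47, led by the lid subunit gene Psmd14 (1.20 ± 0.12) and the ATPase gene Psmc1 (1.18 ± 0.12). The count of proteasome genes that rose was 21 after quantile normalisation and 20 after median centring, with 0 lower in both.

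Of 38 ribosome biogenesis genes 21 rose and 2 fell, with a median log2 difference of 0.54. Imp3, a component of the complex that processes pre-ribosomal RNA, had log2 levels of 9.83, 9.57 and 9.24 at 8 h, against 7.20, 7.29 and 6.91 at 4 h (2.41 ± 0.17, adjusted p = 0.000114). Fibrillarin, encoded by Fbl, rose by 0.83 ± 0.09 and nucleolin, encoded by Ncl, by 0.72 ± 0.09 (log2). Polr1c, a subunit of RNA polymerases I and III, fell by 0.54 ± 0.10. Cytosolic ribosomal proteins moved less, with 17 of 39 tested higher, 0 lower and a median of 0.29, and their many near-identical pseudogenes make single probe sets uncertain. After quantile normalisation and after median centring, 14 of them rose, 1 fell and the median was 0.23. Of 48 mitochondrial respiratory chain subunits 12 rose and 2 fell, with a median of 0.20, so the share that fell was below the background of 17.8%. For polyamines and nucleotides, 6 of 15 rose and 1 fell. Sat1, which acetylates polyamines, rose by 1.10 ± 0.08, Srm, spermidine synthase, by 0.90 ± 0.11 and Odc1, ornithine decarboxylase, by 0.67 ± 0.08, while Azin1, which shields ornithine decarboxylase from degradation, fell by 1.23 ± 0.17 (log2).

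Chaperone genes moved both ways. Of 19 tested, 6 rose and 8 fell, with a median log2 difference of -0.09. The stress-inducible Hspa1a encodes HSP70, whose promoter is controlled by heat shock factor. Its window at chr17:34972107-34972406 on the minus strand is shown because it holds the inverted heat shock repeat GAANNTTC, in capitals.
Hspa1a: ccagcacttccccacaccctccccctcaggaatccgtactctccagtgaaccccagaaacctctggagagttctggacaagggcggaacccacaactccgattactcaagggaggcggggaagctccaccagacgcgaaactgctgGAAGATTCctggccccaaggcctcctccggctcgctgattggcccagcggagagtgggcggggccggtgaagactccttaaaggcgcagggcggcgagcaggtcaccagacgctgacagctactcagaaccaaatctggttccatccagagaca
The repeat, which reads the same on both strands, was in the window of 66.7% of 15 list genes, against 9.04% of all 27025 genes and 6.97% of the 5484 tested. Hspa1a had log2 levels of 8.36, 8.18 and 8.86 at 8 h, against 10.72, 10.93 and 11.47 at 4 h (-2.57 ± 0.23, adjusted p = 0.000227). Its near-identical copy Hspa1b fell by 1.80 ± 0.23 (log2), and the 2 genes may share signal. Their partners Bag3, a nucleotide exchange factor, fell by 1.81 ± 0.17, Dnajb1 by 1.02 ± 0.14 and Dnaja1, both J-domain proteins, by 0.92 ± 0.10. Hspa8, the constitutive cytosolic form, fell by 0.70 ± 0.10. Those that rose were the mitochondrial Hspa9 (1.11 ± 0.12) and subunits of the cytosolic chaperonin that folds actin and tubulin, among them Cct5 (0.79 ± 0.08) and Cct2 (0.72 ± 0.07). The small heat shock genes Hspb1 and Cryab gave -0.05 ± 0.10 and 0.14 ± 0.14, with overlapping pools and no call.

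Immediate early transcription factors were lower: 14 of 22 tested fell and 0 rose, with a median log2 difference of -0.81. Fosb had log2 levels of 2.92, 2.87 and 2.92 at 8 h, against 9.37, 9.49 and 8.54 at 4 h, at least 35.1-fold lower at 8 h (adjusted p = 4e-05). Fos, another Fos-family subunit of AP-1, had log2 levels of 8.91, 9.23 and 9.20 at 8 h, against 12.48, 12.41 and 11.86 at 4 h, so the 8 h level was 0.114 of that at 4 h (-3.14 ± 0.17, adjusted p = 6.32e-05). Nr4a1, an orphan nuclear receptor, had log2 levels of 6.57, 6.58 and 6.56 at 8 h, against 9.42, 9.74 and 9.29 at 4 h (-2.92 ± 0.13, adjusted p = 4.09e-05). The 8 h pools of Nr4a1 were nearly equal and all far below the 4 h pools. Atf3, a stress-induced factor, fell by 1.65 ± 0.10, Nr4a2 by 1.53 ± 0.10 and Jund by 1.35 ± 0.11 (log2). Fosl1, a slower member of the Fos family, gave 0.43 ± 0.16 (adjusted p = 0.0617) with overlapping pools, and Egr2 gave -0.60 ± 0.22 (adjusted p = 0.062). Of 8 feedback regulators of MAP kinases, 4 fell and 0 rose, led by the phosphatase gene Dusp1 at -0.88 ± 0.09.

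Inflammatory genes moved both ways. Of 13 chemokines tested 4 rose and 4 fell, with a median log2 difference of 0.03 that was -0.03 after median centring and after quantile normalisation. Cxcl5, which attracts neutrophils, had log2 levels of 11.72, 11.45 and 11.43 at 8 h, against 8.96, 8.28 and 8.93 at 4 h, a 7.03-fold rise (2.81 ± 0.19, adjusted p = 8.89e-05). Cx3cl1, the membrane-bound fractalkine, rose at least 4.25-fold, with log2 levels of 6.62, 6.13 and 5.51 at 8 h, against 3.88, 3.50 and 3.41 at 4 h. By contrast, Cxcl10, an interferon-induced attractant of T cells, had log2 levels of 5.80, 4.78 and 6.04 at 8 h, against 8.22, 8.77 and 8.12 at 4 h (-2.83 ± 0.33, adjusted p = 0.000596). Cxcl9, of the same kind, fell by 1.61 ± 0.24 and Ccl7, a monocyte attractant, by 0.94 ± 0.18 (log2). Cxcl1, another neutrophil attractant, had log2 levels of 14.17, 13.79 and 14.09 at 8 h, against 14.02, 13.76 and 14.02 at 4 h, with no call. Of 11 cytokines 3 rose and 1 fell, led by Inhba, the activin A subunit (1.48 ± 0.08), and Il11 (1.21 ± 0.18). Among NF-kB components, 4 of 10 rose and 3 fell. The subunit genes Relb (1.60 ± 0.16) and Nfkb2 (1.07 ± 0.18, with another probe set at -0.22) were higher, whereas the inhibitor gene Nfkbia (-0.85 ± 0.10) and Zfp36, which destroys cytokine mRNA, (-1.27 ± 0.12) were lower.

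Of 14 interferon-induced genes tested 9 fell and 0 rose, and their median log2 difference of -1.20 was the lowest among the pathway lists with at least 5 tested genes. Ifit1, an antiviral RNA-binding protein, was at least 4.83-fold lower, with log2 levels of 3.21, 2.28 and 2.83 at 8 h, against 5.81, 7.25 and 5.76 at 4 h. Its relative Ifit2 was at least 6.08-fold lower. Rsad2, the antiviral enzyme viperin, fell by 2.14 ± 0.30 and Irf1, a transcription factor of this response, by 1.19 ± 0.12 (log2). The guanylate-binding protein gene Gbp6 (-3.38 ± 0.24), Parp14 (-2.79 ± 0.38) and the GTPase gene Irgm1 (-2.61 ± 0.40), which were named for the size of their change, belong to the same kind of gene. At 8 h, the log2 levels of Gbp6 were 4.10, 4.14 and 4.79. Those of Parp14 were 5.08, 3.70 and 3.73, and those of Irgm1 were 4.20, 4.05 and 3.97. Most of these lay near or under the filter level, so the sizes of the falls of Gbp6, Parp14 and Irgm1 are uncertain. The adhesion molecules of leukocytes diverged: Icam1 fell by 1.95 ± 0.14 and Vcam1 rose by 0.91 ± 0.11, and of 9 tested 2 rose and 2 fell. Of 15 acute-phase and complement genes 2 fell and 0 rose, Socs3 (-1.43 ± 0.10), which limits cytokine signalling, and the transcription factor gene Cebpd (-1.03 ± 0.11), and the count of falls was 5 after median centring and after quantile normalisation. In the prostaglandin list 1 of 6 rose and 2 fell: Pla2g4a, the phospholipase that releases arachidonic acid, rose by 1.59 ± 0.14, the receptor gene Ptger4 fell by 1.04 ± 0.15, and the cyclooxygenase gene Ptgs2 gave -0.13 ± 0.10 with no call.

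Genes that mark the contractile smooth muscle cell were mostly lower. Of 12 tested 9 fell and 1 rose, with a median log2 difference of -0.59. Cnn1, calponin, had log2 levels of 9.75, 9.85 and 9.31 at 8 h, against 10.84, 11.12 and 11.07 at 4 h (-1.37 ± 0.15, adjusted p = 0.000483). Myocd, the coactivator that switches on contractile genes, had log2 levels of 8.66, 8.67 and 8.68 at 8 h, against 9.52, 9.55 and 10.03 at 4 h (-1.03 ± 0.14, adjusted p = 0.00131). Mylk, the myosin light chain kinase, fell by 0.76 ± 0.12, Myh11, smooth muscle myosin, by 0.65 ± 0.11 and Acta2, smooth muscle actin, by 0.51 ± 0.07 (log2). Smtn, smoothelin, rose by 1.02 ± 0.16, and its 8 h pools all lay above the 4 h pools. Every one of these markers was measured above the filter in the aorta, and the log2 of their summed signal ran from 15.55 to 15.81 at 8 h and from 16.19 to 16.29 at 4 h. In whole tissue, fewer cells of a type and less RNA per cell cannot be told apart. Of 26 cytoskeleton and integrin genes 5 rose and 11 fell. Krt18, a keratin of simple epithelia, rose by 1.41 ± 0.10, and the integrin gene Itgb5 fell by 0.93 ± 0.09.

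Adventitial fibroblast markers fell in 7 of 9 tested, with 0 higher and a median log2 difference of -0.84. Cd34, a surface sialomucin of adventitial and endothelial cells, had log2 levels of 5.73, 5.96 and 5.33 at 8 h, against 8.06, 8.09 and 8.25 at 4 h (-2.46 ± 0.18, adjusted p = 0.000116). Pi16 fell by 1.51 ± 0.26, and the matrix proteoglycan genes Lum and Dcn by 0.92 ± 0.17 and 0.61 ± 0.12 (log2). Pdgfra, the PDGF receptor that defines the lineage, gave -0.31 ± 0.15 with overlapping pools and no call. The log2 of the summed markers ran from 14.02 to 14.21 at 8 h and from 14.78 to 14.93 at 4 h.

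Genes for matrix proteins were also mostly lower, and the cells that made these transcripts cannot be told apart in whole tissue. Of 17 collagen genes 10 fell and 2 rose (median log2 difference -0.52), and of 26 elastic fibre, lysyl oxidase and matrix glycoprotein genes 15 fell and 3 rose (median -0.68). Col1a1, a chain of the main fibrillar collagen, had log2 levels of 9.73, 9.69 and 9.31 at 8 h, against 10.66, 10.51 and 10.48 at 4 h (-0.97 ± 0.13, adjusted p = 0.000961). Col14a1, which sits on fibril surfaces, fell by 2.02 ± 0.14 and Col1a2 by 1.10 ± 0.12 (log2). Ogn, the small proteoglycan osteoglycin, had log2 levels of at most 10.35 in the 8 h pools, against at least 12.09 in the 4 h pools (-1.99 ± 0.10, adjusted p = 5.32e-05). Lox, which cross-links collagen and elastin, fell by 1.21 ± 0.17 and Mfap5, of the microfibrils, by 0.84 ± 0.12 (another probe set -1.88). Eln, elastin, was chosen after its values were seen: its log2 levels were 10.03, 9.31 and 8.62 at 8 h, against 10.98, 10.89 and 10.69 at 4 h (-1.53 ± 0.31, adjusted p = 0.00606). The 8 h pools of Eln were further apart than its 4 h pools, without overlap. The matrix genes that rose included Tnc, tenascin C, a glycoprotein of injured vessels, with log2 levels of 10.25, 10.21 and 10.39 at 8 h, against 8.60, 8.61 and 8.68 at 4 h (1.65 ± 0.09, adjusted p = 6.32e-05), and Col6a3 (0.53 ± 0.12), whose call was lost in a fit to all 18 samples (adjusted p = 0.0889). Fn1, fibronectin, rose by 0.71 ± 0.11, while its other probe set gave -0.37 and the mean of both was not called (adjusted p = 0.207). The shift of the summed fibroblast and smooth muscle markers stands beside these falls, and its part in them was not tested.

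Genes that cut matrix, and their inhibitors, were divided. Of 17 tested 9 rose and 6 fell, so only 2 were not called. Beside Mmp13, the stromelysin gene Mmp3 had log2 levels of 12.59, 12.19 and 12.36 at 8 h, against 10.73, 10.19 and 10.84 at 4 h, a 3.45-fold rise (1.79 ± 0.18, adjusted p = 0.000333). Mmp14, which is anchored in the membrane, rose by 1.09 ± 0.20 and Serpinb2, an inhibitor of plasminogen activators, by 2.64 ± 0.48 (log2). The tissue inhibitors of metalloproteinases went separate ways. Timp1 had log2 levels of 10.37, 9.83 and 9.43 at 8 h, against 7.69, 7.60 and 8.11 at 4 h (2.08 ± 0.24, adjusted p = 0.000553), whereas Timp2 fell by 1.34 ± 0.15 and Timp3 by 0.54 ± 0.09. Adamts1, a protease of versican, fell by 1.29 ± 0.08.

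Among signalling lists of the vessel wall, falls outnumbered rises. Of 29 TGF-beta and BMP genes 14 fell, 2 rose and 13 were not called (median log2 difference -0.38). Id2, a BMP target that blocks helix-loop-helix factors, had log2 levels of 8.68, 8.64 and 8.98 at 8 h, against 11.22, 11.50 and 10.95 at 4 h (-2.46 ± 0.16, adjusted p = 8.31e-05). Id4 fell by 1.63 ± 0.18, the inhibitory Smad7 by 1.52 ± 0.16 and the ligand gene Tgfb2 by 1.68 ± 0.21. Of 11 CCN family and YAP target genes 7 fell and 1 rose (median -0.96). Ccn1, a matricellular protein induced by stretch, had log2 levels of 8.40, 8.39 and 8.31 at 8 h, against 10.07, 10.17 and 10.25 at 4 h (-1.79 ± 0.09, adjusted p = 5.32e-05). Ccn2, long known as connective tissue growth factor, fell by 0.96 ± 0.09, and F3, tissue factor, by 1.72 ± 0.14. The regulator gene Yap1 itself gave -0.17 ± 0.11 with no call. Of 19 Wnt pathway genes 10 fell, 0 rose and 9 were not called (median -0.69), among them the extracellular antagonist Sfrp2 (-2.26 ± 0.13) and the receptor gene Fzd6 (-1.93 ± 0.16). In the Notch list 4 of 10 fell and 1 rose: Heyl, a target gene of vascular smooth muscle, was at least 3.97-fold lower, and Rbpj, the DNA-binding partner of Notch, was higher by 1.52 ± 0.12.

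Vessel tone genes had 8 of 18 tested lower and 0 higher, with a median log2 difference of -0.31. Edn1, which encodes the constrictor endothelin 1, had log2 levels of 4.64, 4.39 and 4.75 at 8 h, against 6.52, 6.78 and 6.82 at 4 h (-2.11 ± 0.17, adjusted p = 0.00015). Gucy1b1, a subunit of the nitric oxide receptor guanylate cyclase, fell by 1.54 ± 0.11 and Rgs4, which shortens G protein signals, by 1.74 ± 0.14 (log2). The natriuretic peptide receptor gene Npr1 fell by 1.40 ± 0.13. Nos3, the endothelial nitric oxide synthase, gave 0.46 ± 0.20 with overlapping pools. Of 24 growth factor and receptor genes 5 rose and 5 fell. Angpt2, a ligand that destabilises endothelium, rose by 1.21 ± 0.18 and Igf1r, the receptor for insulin-like growth factor, by 1.76 ± 0.22 (another probe set 0.57). The ligand gene Igf1 fell by 1.21 ± 0.17 (other probe sets -2.60 and -1.01) and the receptor gene Pdgfrb by 1.02 ± 0.12.

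Genes that respond to corticosteroids, tested here without added hormone and after an MR antagonist, moved in both directions. Of 20 tested 5 rose and 10 fell, with a median log2 difference of -0.37. Zbtb16, a zinc finger transcription factor, had log2 levels of 6.25, 6.49 and 5.96 at 8 h, against 7.59, 7.72 and 8.34 at 4 h (-1.65 ± 0.23, adjusted p = 0.00125). Hsd11b1, the enzyme that regenerates active glucocorticoid, fell by 1.22 ± 0.20 and the transcription factor gene Klf9 by 0.95 ± 0.12 (log2). Sgk1, a kinase induced by corticosteroids, gave -0.36 ± 0.22 with overlapping pools. The metallothionein genes rose, Mt1 by 1.01 ± 0.13 and Mt2 by 0.71 ± 0.15, with another Mt1 probe set at -0.13 and no call for their mean (adjusted p = 0.0749). The clock list had 6 of 13 lower and 1 higher. Per2, a clock repressor, had log2 levels of 5.44, 5.90 and 6.09 at 8 h, against 7.90, 7.62 and 7.50 at 4 h (-1.86 ± 0.20, adjusted p = 0.00043). Cry1, another repressor, fell by 1.21 ± 0.16 and Arntl, the activator BMAL1, by 1.07 ± 0.14. Dbp, an output factor of the clock, rose by 1.80 ± 0.57 (adjusted p = 0.0383), with log2 levels of 6.87, 8.45 and 6.42 at 8 h, against 6.22, 5.55 and 4.59 at 4 h. Without vehicle 8 h replicate 2 the log2 difference of Dbp was 1.20, and its call was also lost without vehicle 8 h replicate 1 or vehicle 4 h replicate 2 or 3 (adjusted p up to 0.111). In all, the call of Dbp was lost in 5 of 17 alternative settings.

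Growth and survival genes showed no common direction. Of 16 cell cycle genes 5 rose and 5 fell, with a median log2 difference of 0.00 that was -0.06 after median centring. Ccnd2, cyclin D2, rose by 0.94 ± 0.16 and Mcm7, of the replication helicase, by 0.89 ± 0.13, while the licensing factor gene Cdt1 fell by 1.58 ± 0.32 (log2). Of 17 p53 targets and growth arrest genes 5 fell and 1 rose, with 8 lower after median centring and after quantile normalisation. Gadd45b, a stress-induced regulator of MAP kinase signalling, had log2 levels of 8.02, 8.13 and 7.98 at 8 h, against 10.69, 10.83 and 10.48 at 4 h (-2.62 ± 0.11, adjusted p = 4.09e-05). Cdkn1a, the inhibitor p21, rose by 0.53 ± 0.10. Of 11 apoptosis genes 4 rose and 3 fell, among them Cflar, which blocks caspase 8 (0.87 ± 0.11, another probe set -0.06), and the killer gene Bcl2l11 (-1.31 ± 0.15). Of 14 cholesterol genes 3 rose and 1 fell, Msmo1 (1.21 ± 0.10) and Hmgcs1 (-0.75 ± 0.09) having the smallest p in each direction. Of 23 autophagy and lysosome genes 2 rose and 7 fell, with the protease gene Ctsl at -0.68 ± 0.09. Of 26 splicing factors 3 rose and 7 fell, none by more than 1.

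Markers of the other cells of the vessel gave the following. Of 8 tested macrophage markers 5 fell and 0 rose, with a median log2 difference of -1.19. Mrc1, the mannose receptor of resident macrophages, had log2 levels of 5.40, 4.87 and 4.94 at 8 h, against 7.68, 7.53 and 7.80 at 4 h (-2.60 ± 0.18, adjusted p = 0.000109). Csf1r, the receptor for macrophage colony-stimulating factor, fell by 1.81 ± 0.18 (log2), its other probe sets giving -0.57 and -0.11, while Cd14 gave 0.12 ± 0.21 and Adgre1, the F4/80 antigen, -0.34 ± 0.20, neither called. The log2 of the summed signal of all 13 macrophage markers with a probe set ran from 9.60 to 10.24 at 8 h and from 10.39 to 10.82 at 4 h. The part of this shift in the falls of interferon-induced genes was not tested. Of 10 tested endothelial markers 1 rose and 2 fell, with a median of 0.05 that was -0.02 after median centring and -0.01 after quantile normalisation. The log2 of the summed signal of all 12 with a probe set ran from 10.59 to 10.75 at 8 h and from 10.41 to 10.73 at 4 h. Esam, an endothelial adhesion molecule, rose by 1.08 ± 0.15, and Cdh5, the cadherin that defines the cell type, gave 0.75 ± 0.27 with no call (adjusted p = 0.0573). The 2 that fell were Kdr and Cldn5. Over the alternative settings their log2 differences ran from -1.26 to -0.77 for Kdr and from -0.63 to -0.38 for Cldn5. The call was lost in 1 of 16 settings for Kdr and in 6 of 17 for Cldn5. Of 8 fat cell markers 1 rose and 2 fell: Ucp1, the uncoupling protein of brown fat, had log2 levels of 8.06, 8.67 and 7.67 at 8 h, against 6.68, 6.47 and 6.02 at 4 h (1.74 ± 0.27, adjusted p = 0.00213), and Adipoq, adiponectin, fell by 0.73 ± 0.16. None of the 8 skeletal muscle or 4 mesothelial markers with a probe set passed the filter, and 1 of 8 lymphocyte, 1 of 8 neutrophil and 2 of 8 cardiac muscle markers did. Of 5 Schwann cell and nerve markers 2 passed, Uchl1 at 0.91 ± 0.25 and Ncam1 at -0.72 ± 0.08. The call of Uchl1 was lost in 5 of 17 alternative settings (adjusted p up to 0.0777). Among them were the fits without vehicle 4 h replicate 1 or 3 or vehicle 8 h replicate 1 or 2. The 3 red blood cell markers past the filter had no call.

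The levels at 2 h of vehicle culture, which the comparison does not use, are given beside the later ones as a description. Among the 2 h pools, replicate 1 stood apart, with a median log2 level of 4.42 over all probe sets against 4.10 and 4.08 in the others. Asns had log2 levels of 7.41, 5.93 and 6.35 at 2 h, and its pools at 4 h and then at 8 h lay above those. Car9 had log2 levels of 4.58, 4.00 and 4.37 at 2 h, also below both later times. Nqo1, at 6.37, 5.82 and 5.43, and Slc7a11, at 2.57, 2.49 and 2.54, were near their 4 h levels at 2 h, so their higher level was seen at 8 h. Fos had log2 levels of 14.40, 14.90 and 14.72 at 2 h and Cxcl10 of 10.25, 9.84 and 10.44, each above its 4 h pools. Other genes that fell after 4 h did not: Xirp1 had 9.78, 9.30 and 9.30 at 2 h and Gbp6 7.43, 7.34 and 8.18, both overlapping their 4 h pools. Cd34, at 8.26, 8.99 and 8.96 at 2 h, was closer to its 4 h level than the 8 h pools were.

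**Figure D4:**
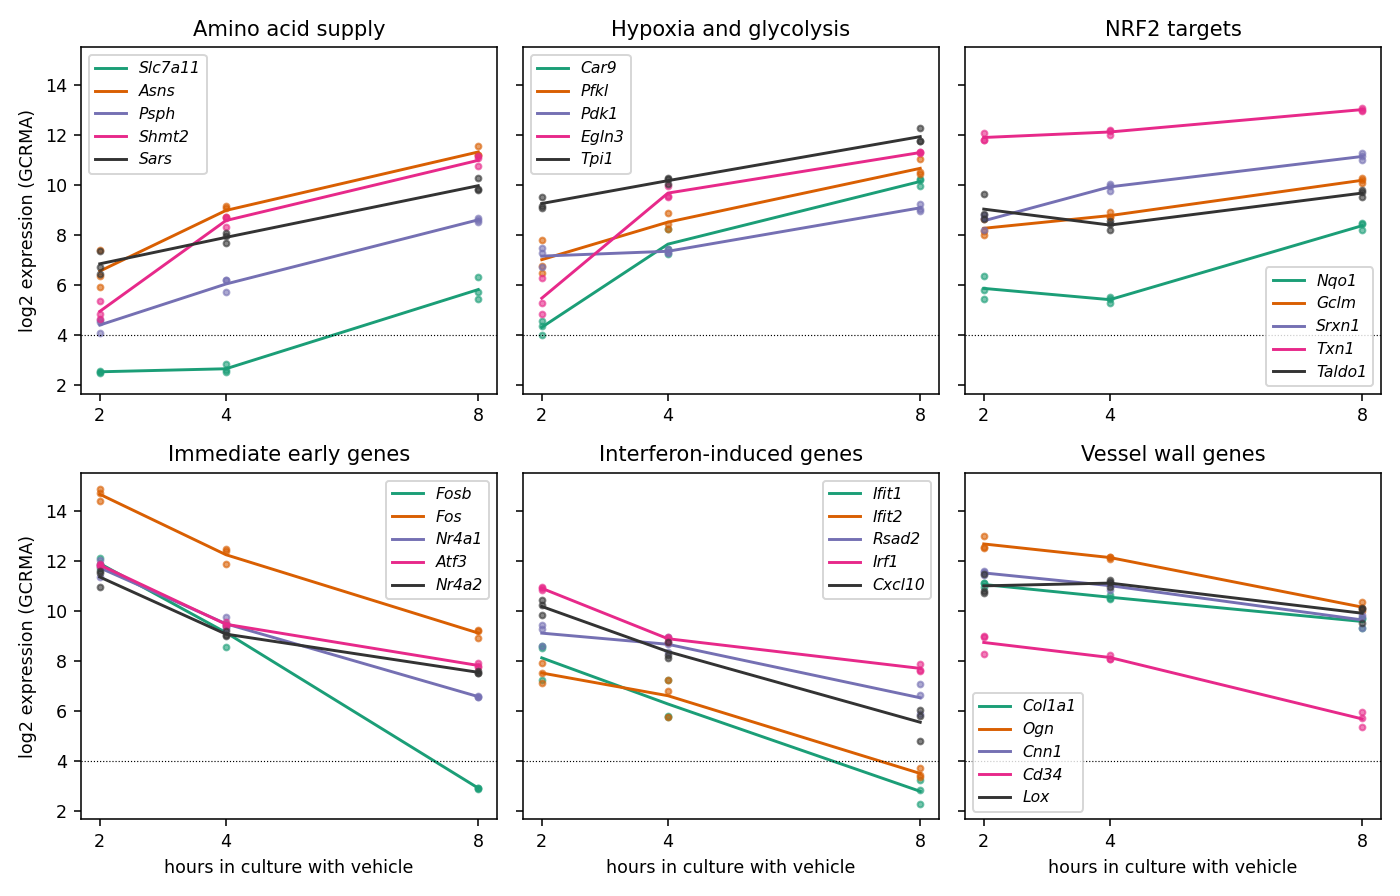
Log2 expression in vehicle culture at 2, 4 and 8 h for 5 genes of each of 6 kinds, with points for single pools, lines through the means and a dotted line at the filter level of 4. Genes of amino acid supply and of hypoxia are mostly higher at each later time, Nqo1 is highest at 8 h, Srxn1 is higher at each later time, and the genes of the lower panels are lowest at 8 h.

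The same interval was measured in 6 other samples, 3 pools at 8 h and 3 at 4 h with 100 nM aldosterone, the natural MR agonist. In them, 3300 of 6743 genes changed (48.9%), with 1913 higher (28.4%) and 1387 lower (20.6%). Of the 1555 genes that rose in vehicle, 1330 also rose with aldosterone and 6 had the opposite sign. Of the 1202 that fell, 977 also fell and 18 had the opposite sign. Shared calls made up 83.7% of those in vehicle and 69.9% of those with aldosterone. With aldosterone, 13 of 19 ATF4 targets, 17 of 17 synthetases, 19 of 22 hypoxia genes and 15 of 22 NRF2 targets were higher at 8 h, and 17 of 22 immediate early and 12 of 14 interferon-induced genes were lower. Counts were further apart in other lists: 17 of 39 cytosolic ribosomal protein genes rose in vehicle and 26 of 39 with aldosterone, and 3 of 11 cytokines rose in vehicle and 6 of 10 with aldosterone. The median log2 difference of macrophage markers was -1.19 in vehicle and -0.51 with aldosterone. These differences between lists were not tested. Log2 differences in vehicle and with aldosterone were 3.53 and 3.05 for Mmp13, 2.34 and 2.55 for Asns, -3.14 and -3.01 for Fos, and -5.13 and -4.88 for Xirp1.

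The difference between the changes, vehicle minus aldosterone, passed in 2 of 6753 genes (0.0296%) by limma, and 371 had an unadjusted p under 0.05. A share of 0.05 of all tests would pass that unadjusted level where nothing differs. Plxna2, a receptor for semaphorins, had log2 levels of 6.67, 6.66 and 6.77 at 8 h, against 7.20, 6.79 and 7.04 at 4 h in vehicle, and 7.89, 8.09 and 8.05 at 8 h, against 7.02, 7.00 and 6.89 at 4 h with aldosterone. Its change was -0.31 in vehicle and 1.04 with aldosterone, a difference of -1.35 ± 0.18 (log2, adjusted p = 0.0147). In vehicle alone it was not past the threshold (adjusted p = 0.133), although the 8 h pools lay just below the 4 h pools. Nudt4, a hydrolase of inositol pyrophosphates, had log2 levels of 11.14, 11.19 and 11.04 at 8 h, against 11.48, 11.48 and 11.42 at 4 h in vehicle, and 12.11, 12.19 and 12.12 at 8 h, against 11.74, 11.85 and 11.83 at 4 h with aldosterone. It fell by 0.34 in vehicle and rose by 0.33 with aldosterone, a difference of -0.67 ± 0.10 (log2, adjusted p = 0.0312). The count of 2 was 1 without vehicle 4 h replicate 1, vehicle 8 h replicate 3 or aldosterone 8 h replicate 1. It was 0 without vehicle 4 h replicate 3, vehicle 8 h replicate 1, aldosterone 4 h replicate 2 or 3, or aldosterone 8 h replicate 2 or 3. Fkbp5, a corticosteroid-induced co-chaperone, rose by 0.48 ± 0.14 in vehicle and by 1.38 with aldosterone, a difference that did not pass (adjusted p = 0.214). The call of Fkbp5 in vehicle was lost in 6 of 17 alternative settings (adjusted p up to 0.163). Among them were the fits without vehicle 4 h replicate 1 or 3 or vehicle 8 h replicate 1 or 2. Fmo2, a monooxygenase, fell by 2.11 ± 0.13 in vehicle and by 0.93 with aldosterone (difference adjusted p = 0.266).

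**Figure D5:**
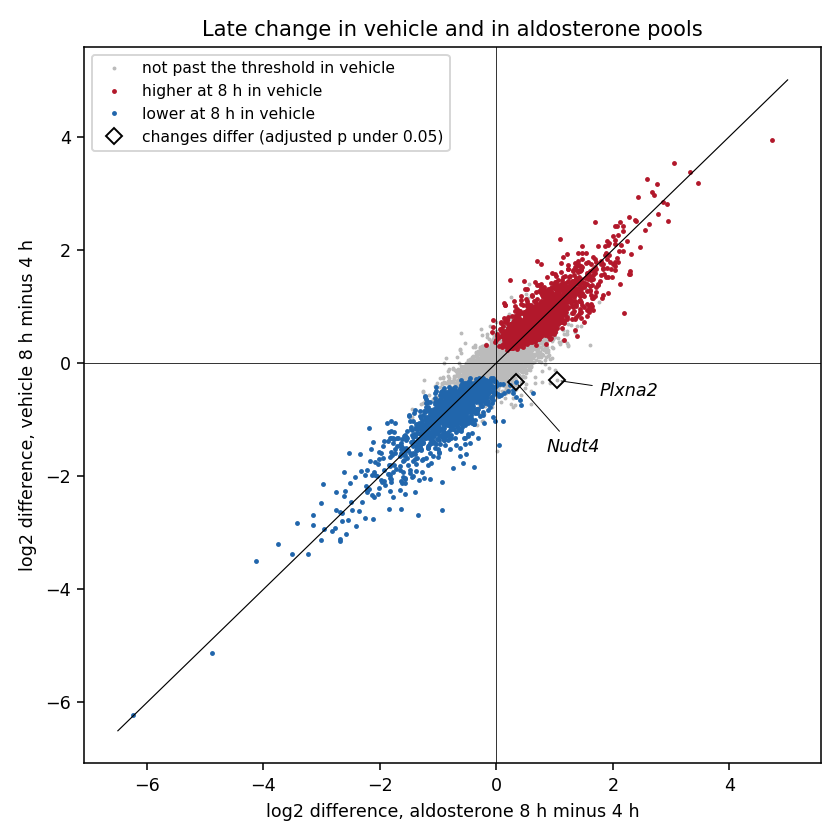
Each point is a gene, with its log2 difference, 8 h minus 4 h, in vehicle on the vertical axis and with aldosterone on the horizontal axis, and the line marks equal change. Red and blue points are genes higher and lower at 8 h in vehicle, and most lie near the line. The diamonds are Plxna2 and Nudt4, the genes whose changes differed, both below the line.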

How the data were processed

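Per the labels' protocols, RNA from pooled aortas was labelled as biotin cRNA and hybridised to Affymetrix arrays. The deposited values are log2 expression levels summarised with GCRMA, per the submitters' processing notes, a method that in general corrects background by probe sequence, so low levels crowd together and their differences are less certain. Array values carry no read depth, so the number of arrays limits precision. Starting from these values, the 64 control probe sets were left out, and probe sets with log2 above 4 in at least 3 of the 6 samples were tested with limma 3.58.1 in R 4.3.3 (empirical Bayes with an intensity trend, Benjamini-Hochberg adjustment, threshold 0.05), with no covariate. Of the probe sets, 20380 had 1 gene in the platform annotation, 691 several and 1555 none, and 20351 matched a RefSeq gene. The brightest probe set stood for a gene, and median differences of lists include it at its fitted value.

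Vehicle and aldosterone changes were compared in 1 fit of the 12 samples at 4 and 8 h. Where every sample of 1 group was at or under 4, a fold is a lower bound that sets the mean of the other group against that level. Such a gene passed the filter only with every sample of the other group above 4. Its groups therefore could not overlap, and its p-value carries this selection. The genes named were the 25 largest rises and 25 largest falls with separate groups, the 8 largest bounds in each direction, up to 6 called members of a list in each direction and up to 4 not called, and the 10 smallest p-values for the difference from aldosterone. The text takes some of these. The members and lists were chosen with earlier results of these data known. The scripts were tested on simulated data. Alternatives covered the filter, prior, scaling, weights, probe set rule, samples fitted, replicate number and each pool left out.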

Additional observations from a re-analysis of the deposited data

Results flagged for a closer look

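Plxna2 and Nudt4 changed differently from 4 to 8 h with and without aldosterone, by a test of the difference itself in limma. The log2 change of Plxna2 in vehicle minus that with aldosterone was -1.35 (adjusted p = 0.0147), and that of Nudt4 was -0.669 (adjusted p = 0.0312). For Nudt4, the other probe set gave a log2 difference of -0.14 in vehicle.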

How the results depend on the processing

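Replicate numbers in the labels did not pair the samples: deviations of same-numbered 8 h and 4 h pools correlated at -0.184, 0.0551 and -0.056, and with a replicate block 1343 genes were higher and 1062 lower. Leaving out 1 pool gave 1147 to 1493 genes higher and 935 to 1142 lower. Quantile normalisation and median centring moved all genes by -0.0429 and -0.0616 (log2), and the share of higher among called genes, 56.4%, was 52.3% and 49.8%. The 2 genes that differed from aldosterone became 1 without the intensity trend, with the mean of probe sets, with the fit of all 18 samples and with the replicate block, 4 with no filter, and 0 to 2 on leaving out 1 pool. With the mean of probe sets, the sign turned for Csf1 (0.10), Pfkfb3 (0.0107) and Asph (-0.26), and the log2 change of Tmem123 was 0.00622. The log2 change of Asph ran from -0.00947 to 0.22 on leaving out 1 pool, the lowest without vehicle 4 h replicate 1, and that of Jag1 was 0.066 when all 6 samples had to pass the filter. The causes were not tested. Of 341 called genes that the naming rule covers, 277 kept their call in every alternative.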
